A study of Mus musculus with 10 samples.

Results

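Fat tissue surrounds the mouse aorta, and fat cells release proteins into the blood that report on fat stores and act on other tissues. The genes described here encode 7 such proteins: leptin (Lep), adiponectin (Adipoq), resistin (Retn), adipsin (Cfd), fatty acid binding protein 4 (Fabp4), chemerin (Rarres2) and retinol binding protein 4 (Rbp4). They were chosen by gene symbol, and their probe sets were those that the platform's annotation assigns to a listed gene alone. That found 11 probe sets for 6 of the 7 genes, out of 45101 probe sets and 18194 named genes. Lep, Adipoq, Retn and Rbp4 had 1 probe set each, Rarres2 had 3 and Fabp4 had 4, while no probe set carried the symbol Cfd in that annotation, so Cfd was not analysed here.

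The arrays compared aorta from male wild-type mice (strain C57Bl/6 in the labels) with aorta from male mice carrying a mutation of Npas2 on a C57Bl/6J background, 5 arrays per group. NPAS2 is a transcription factor of the circadian clock that pairs with BMAL1. All mice had at least 2 weeks of 12 h light and 12 h dark, then at least 30 h of darkness, and were killed at zeitgeber time 14 h; the animals were perfused through the heart before dissection. Neither the age of the mice, the nature of the mutation, nor whether each array held RNA from a separate mouse is given in the sources used here, so every p value given here reflects only how these arrays scatter, and that scatter may be technical. The label of a thoracic aorta and the dissection described, which runs to the femoral branching, differ in extent.

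Values were log2 levels, so a difference of 1 is a doubling. A difference is given as mutant minus wild type with the standard error (SE) of a limma fit over 22340 probe sets, and "passed" means a limma p adjusted over all of them under 0.05. In that fit 48 probe sets passed (0.215%), 27 of them lower in the mutant (0.121%) and 21 higher (0.0940%), and 34 or 43 without wild type F11 or F14_2. Without any 1 of the other 8 arrays, F15, F16, F17, F12, F13, F18, F19 or F20, only 9 to 23 passed. The smooth muscle markers of the aortic wall, such as Acta2 at 14.42 ± 0.10 in wild type and 14.38 ± 0.06 in the mutant (SD, n = 5 each), were bright in both groups. All 7 had a lower mean in the mutant (median difference -0.23), Acta2 by the least (-0.03). Skeletal muscle markers varied widely (Myh1, a fast myosin gene, differed by 2.91 ± 1.91 and Myh2 by 2.67 ± 1.55; SE, limma adjusted p of 0.475 and 0.423), with list means from 3.23 to 9.90 on wild-type arrays and from 3.27 to 11.05 on mutant arrays. Liver markers (Alb, Apoa1, Ttr and Ahsg), of interest because liver also makes retinol binding protein 4 and chemerin, were too dim to be tested. Npas2 itself was dim, at 3.71 ± 0.24 in wild type and 3.43 ± 0.03 in the mutant on its brighter probe set (SD, n = 5 each; limma adjusted p = 0.249).

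Leptin is the hormone by which fat stores signal to the brain, made mostly by white fat cells and little by brown ones. Adiponectin, a hormone that raises insulin sensitivity, is made by white and brown fat cells alike. Resistin is a fat cell hormone of the mouse that opposes insulin action. Fatty acid binding protein 4 carries fatty acids inside fat cells, macrophages and capillary endothelium and is also secreted. Chemerin draws immune cells through the receptor CMKLR1, and retinol binding protein 4 carries vitamin A in blood.

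The Lep and Adipoq promoters are shown because Lep had the largest difference among the measured genes and Adipoq, a gene common to all fat cells, one of the smallest. Each line gives the 250 bases before the annotated start, 5′ to 3′ on the gene's strand, from RefSeq (build GRCm38.p6, plus strand for both). In the Lep line the capitals mark TTGCGCAA, the palindromic letters bound by C/EBP transcription factors, and in the Adipoq line they mark CCAAT or its complement.
Lep, chr6:29059971-29060220: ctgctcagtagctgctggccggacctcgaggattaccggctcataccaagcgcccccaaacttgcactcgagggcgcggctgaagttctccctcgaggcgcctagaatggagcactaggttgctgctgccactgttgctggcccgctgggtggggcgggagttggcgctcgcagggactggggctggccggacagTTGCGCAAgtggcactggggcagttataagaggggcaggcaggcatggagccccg
Adipoq, chr16:23146286-23146535: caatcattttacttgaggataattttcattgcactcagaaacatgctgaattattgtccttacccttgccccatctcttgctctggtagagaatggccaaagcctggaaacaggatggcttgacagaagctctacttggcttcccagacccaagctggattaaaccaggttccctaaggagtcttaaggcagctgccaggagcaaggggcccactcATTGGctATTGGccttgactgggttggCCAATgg

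The C/EBP letters lay 55 to 48 bases before the Lep start, and 54 of 32851 promoter windows of this length (0.164%) hold them on either strand. Adipoq held 3 CCAAT matches, and 33.8% of windows hold at least 1. The letters CACGTG, the E-box that NPAS2 and BMAL1 bind, were in 0 of the 6 windows listed for Lep, Adipoq, Retn, Cfd and Rbp4 (2 for Rbp4), against 6.02% of all windows. The variant CACGTT on either strand was also in 0 of these 6, against 3.85% of all windows. Matches are descriptions of letters, and sites outside these windows were not searched. Fabp4 and Rarres2 are named only.

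Lep was lower in the mutant aorta, but the difference did not pass over all probe sets. On probe set 1422582_at the wild-type arrays read 5.75 (F11), 6.17 (F14_2), 6.53 (F15), 6.44 (F16) and 6.40 (F17). The mutant arrays read 5.27 (F12), 6.06 (F13), 5.75 (F18), 4.88 (F19) and 5.42 (F20). All 5 mutant arrays lay below the wild-type mean, and the groups overlapped through mutant F13 and F18 and wild type F11. The means were 6.26 ± 0.31 in wild type and 5.48 ± 0.45 in the mutant (SD, n = 5 each), which is 1.72-fold lower in the mutant. The difference of -0.78 ± 0.22 (SE) had a 95% interval from -1.26 to -0.30, a limma adjusted p of 0.155 and an unadjusted limma p of 0.00442. Lep ranked 634th of 22340 probe sets by p. An exact permutation test (two-sided, 5 against 5 arrays) gave p = 0.0238. In tissue RNA, fewer fat cells of a kind and less transcript per cell cannot be told apart.

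The 3 lowest Lep readings came from arrays rich in skeletal muscle markers. Mutant F12, F19 and F20, with Lep from 4.88 to 5.42, had means of the 12 skeletal muscle markers of 11.05, 8.99 and 9.84. Mutant F13 and F18, with Lep at 6.06 and 5.75, had 3.54 and 3.27. The muscle-rich wild type F16, at 9.90, read 6.44 for Lep. Wild type F11, F14_2, F15 and F17, with means of 3.23, 6.26, 5.62 and 3.28, read 5.75, 6.17, 6.53 and 6.40. With the skeletal muscle mean as a covariate the Lep difference was -0.71 ± 0.22 (SE, limma adjusted p = 0.254). Without the 4 muscle-rich arrays, wild type F16 and mutant F12, F19 and F20, it was -0.31 ± 0.23 (SE, limma adjusted p = 0.828). That fit held 4 wild-type and 2 mutant arrays, and the part of skeletal muscle in the Lep difference was not tested.

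**Figure D1:**
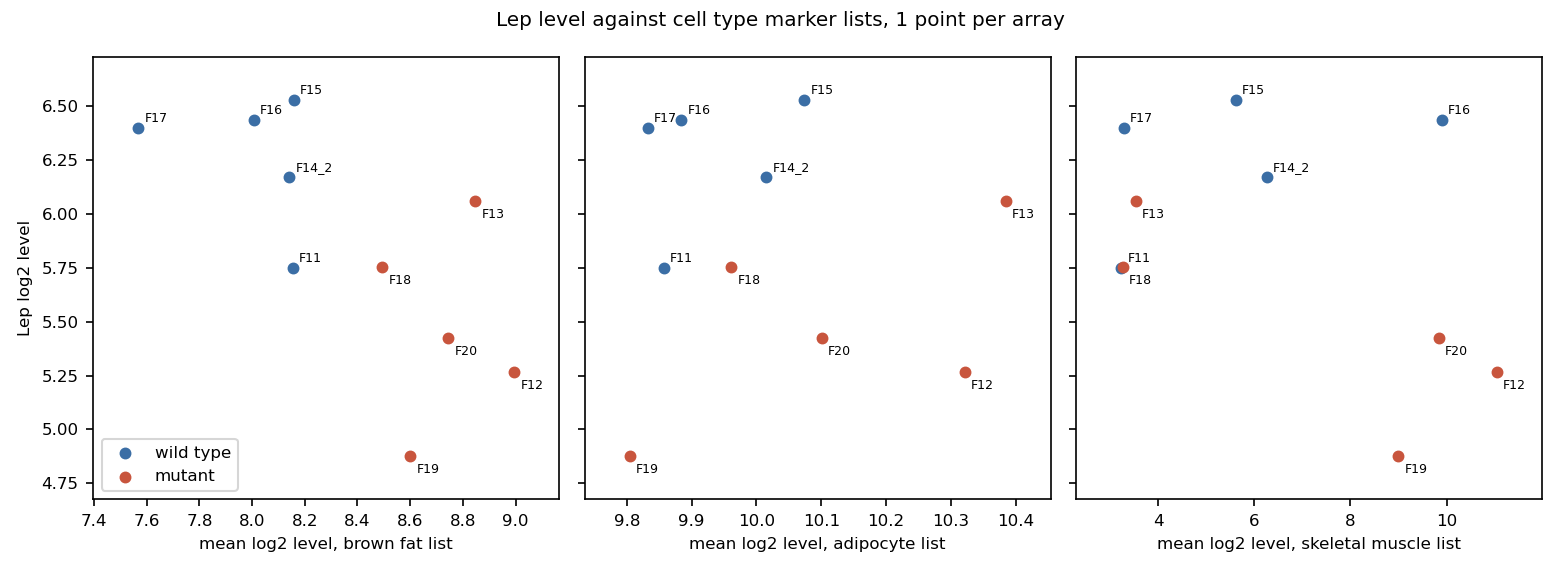
Lep log2 level (vertical axis) on each of the 10 arrays against the mean log2 level of the brown fat, adipocyte and skeletal muscle marker lists (horizontal axes); points are arrays, named by replicate, blue for wild type and red for mutant. Mutant F12, F19 and F20 combine low Lep with high skeletal muscle means, while wild type F16, also rich in these markers, has Lep at 6.44.

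Adipoq did not show such a difference. On probe set 1422651_at the wild-type arrays read 12.74, 13.08, 12.80, 12.97 and 13.17 (F11, F14_2, F15, F16, F17). The mutant arrays read 13.08, 13.20, 12.99, 12.92 and 13.09 (F12, F13, F18, F19, F20). Of the mutant arrays 4 of 5 lay inside the wild-type range and F13 just above it. Its difference was 0.11 ± 0.09 (SE, limma adjusted p = 0.585), and the 95% interval, from -0.10 to 0.31, corresponds to 0.935- to 1.24-fold. It was 0.052, 0.067 and 0.070 without wild type F11, wild type F15 and mutant F13, and 0.16 without wild type F17.

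Retn differed more among wild-type arrays than between groups. The wild-type arrays read 8.94, 9.09, 9.96, 9.44 and 10.01, and the mutant arrays 9.76, 9.58, 9.78, 9.65 and 9.55 on probe set 1449182_at, in the same array order. All mutant arrays lay inside the wild-type range, with SDs of 0.49 in wild type and 0.10 in the mutant (n = 5 each). The difference was 0.17 ± 0.20 (SE, limma adjusted p = 0.684; 95% interval from -0.26 to 0.61). It was 0.036 and 0.075 without wild type F11 and F14_2, and 0.29 and 0.31 without wild type F15 and F17.

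**Figure D2:**
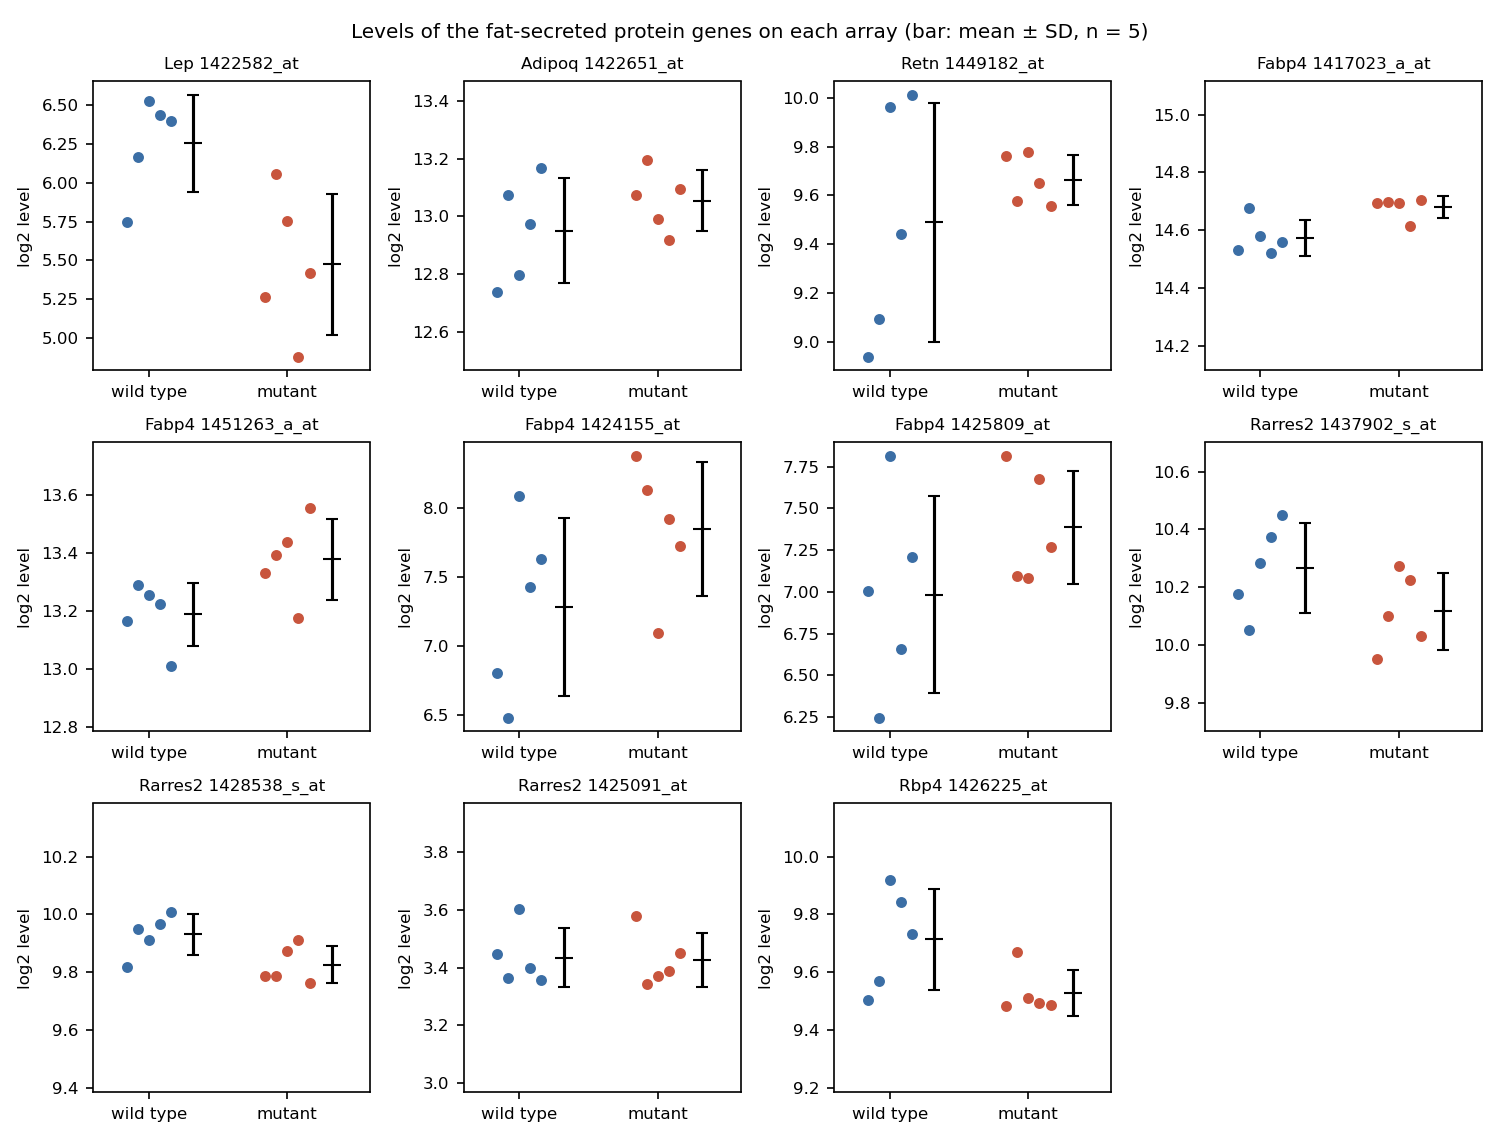
Log2 level of each of the 11 probe sets on each array (points; blue wild type, red mutant), with the mean and SD of the 5 arrays of a group as a bar; each panel has its own vertical range. The 5 mutant arrays of Lep all lie below the wild-type mean of 6.26, and on all 11 probe sets the groups overlap.

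Fabp4 had a higher mean in the mutant on all 4 of its probe sets, and none passed. The brightest, 1417023_a_at, read 14.53, 14.68, 14.58, 14.52 and 14.56 in wild type and 14.69, 14.70, 14.69, 14.61 and 14.71 in the mutant. All mutant arrays lay above the wild-type mean, with wild type F14_2 and mutant F19 making the groups overlap. The difference was 0.11 ± 0.05 (SE, limma adjusted p = 0.342, and an exact permutation p of 0.0159). These readings were close to 14.74, the highest value of any probe set on any array, and whether the probes were saturated was not tested.

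The second Fabp4 probe set, 1451263_a_at, had means of 13.19 ± 0.11 and 13.38 ± 0.14 (SD, n = 5 each). It differed by 0.19 ± 0.08 (SE; limma adjusted p = 0.294, and an exact permutation p of 0.0476). The less bright Fabp4 probe sets 1424155_at and 1425809_at had larger and less certain differences, 0.57 ± 0.32 and 0.40 ± 0.27 (SE; limma adjusted p of 0.406 and 0.477). Both depended on single wild-type arrays, with 0.36 and 0.22 without F14_2 and 0.77 and 0.61 without F15. They ranged from 6.48 to 8.09 and from 6.24 to 7.81 in wild type, so that the spread within a group exceeded the difference between groups.

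Rarres2 and Rbp4 had slightly lower means in the mutant. The brightest Rarres2 probe set, 1437902_s_at, read 10.18, 10.05, 10.28, 10.37 and 10.45 in wild type and 9.95, 10.10, 10.27, 10.22 and 10.03 in the mutant. Its difference was -0.15 ± 0.09 (SE, limma adjusted p = 0.434, exact permutation p = 0.135). That of 1428538_s_at was -0.11 ± 0.06 (SE, limma adjusted p = 0.385, exact permutation p = 0.0476) with each mutant array under the mean of the wild type. The suffix of both marks probes shared with related transcripts. The third, 1425091_at, lay close to the array medians (3.14 to 3.20) at 3.43 ± 0.10 in wild type and 3.43 ± 0.09 in the mutant (SD, n = 5 each).

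Rbp4 read 9.50, 9.57, 9.92, 9.84 and 9.73 in wild type on probe set 1426225_at. The mutant arrays read 9.48, 9.67, 9.51, 9.49 and 9.49, each under the mean of the wild type and 4 of them between 9.48 and 9.51. The difference of -0.19 ± 0.09 (SE) had a 95% interval from -0.38 to 0.0045 and, in limma, an adjusted p of 0.334. Wild type F11 and F14_2 lay within the mutant range.

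Over the 11 probe sets, all of which were above the median of every array, the mutant mean was the higher on 6 and the lower on 5. None passed (limma, 0 of 11, against 0.215% of all tested probe sets). At an unadjusted limma p under 0.05 there were 2, Lep and Fabp4 1451263_a_at, and 15.3% of all tested probe sets met that level (10.6% lower and 4.75% higher in the mutant). On 0 of the 11 did the groups not overlap, against 4.01% of all tested probe sets. Taking the brightest probe set of each gene, the median difference of the 6 genes was -0.02, equal to the -0.02 of all 10945 tested genes; 3 of the 6 were higher in the mutant, against 44.1% of all tested genes.

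**Figure D3:**
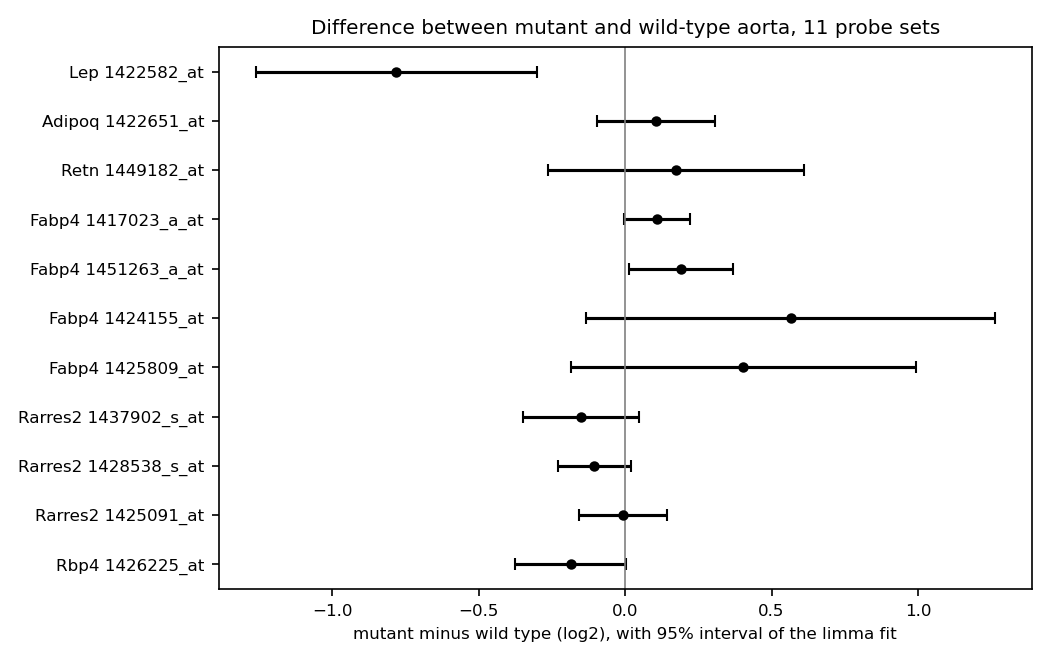
Mutant minus wild type on the log2 scale for each of the 11 probe sets (points) with the 95% interval of the limma fit (bars); the vertical line marks 0. Lep lies at -0.78 with an interval from -1.26 to -0.30, and the other genes' brightest probe sets lie between -0.19 and 0.17.

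Set against other fat cell genes on the same array, Lep stood lower on every mutant array. The yardstick was the mean of 15 fat cell genes, among them Lpl, Cidec, Lipe and Cd36, which encode lipid-handling proteins of fat cells. That mean was 9.93 ± 0.11 in wild type and 10.11 ± 0.24 in the mutant (SD, n = 5 each), a difference of 0.18 that enters every value below with a negative sign. Lep minus the mean was -4.11, -3.84, -3.54, -3.45 and -3.43 in wild type (F11, F14_2, F15, F16, F17). In the mutant it was -5.06, -4.33, -4.21, -4.93 and -4.68 (F12, F13, F18, F19, F20). The groups did not overlap, with mutant F18 at -4.21 next to wild type F11 at -4.11.

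The difference in this measure was -0.96, with an exact permutation p of 0.00794 (two-sided, unadjusted, 6 such tests). That is the lowest p possible for groups of this size. It stayed between -1.07 and -0.86 when any 1 array was left out. Among 10945 genes treated alike, 1.68% had groups that did not overlap (1.49% lower in the mutant), and 2.03% of probe sets did. A limma fit of all probe sets after the same subtraction, added after the data were seen, gave Lep -0.96 ± 0.18 (SE) with an adjusted p of 0.0281, where 73 probe sets passed (0.327%, and 0.286% lower in the mutant). Because that fit subtracts 1 mean from every probe set, all share its scatter between arrays, which the fit does not model. Its SE and p may therefore be too small. Entered as a covariate instead, the same mean left Lep at -0.98 ± 0.22 (SE, limma adjusted p = 0.193), which did not pass. Without the 4 muscle-rich arrays the Lep measure differed by -0.53, with an exact permutation p of 0.133, where 4 against 2 arrays cannot go below 0.0667.

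Of the other genes, Rbp4 had a difference of -0.37 in this measure, an exact permutation p of 0.0317 (two-sided) and overlapping groups. That p was 0.0556 when wild type F15, F16 or F17 was left out. Rarres2 had -0.33 (exact permutation p = 0.111), and -0.44 (exact permutation p = 0.0476) without mutant F19. Adipoq (-0.08), Fabp4 (-0.07) and Retn (-0.01) had exact permutation p values from 0.492 to 0.968.

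**Figure D4:**
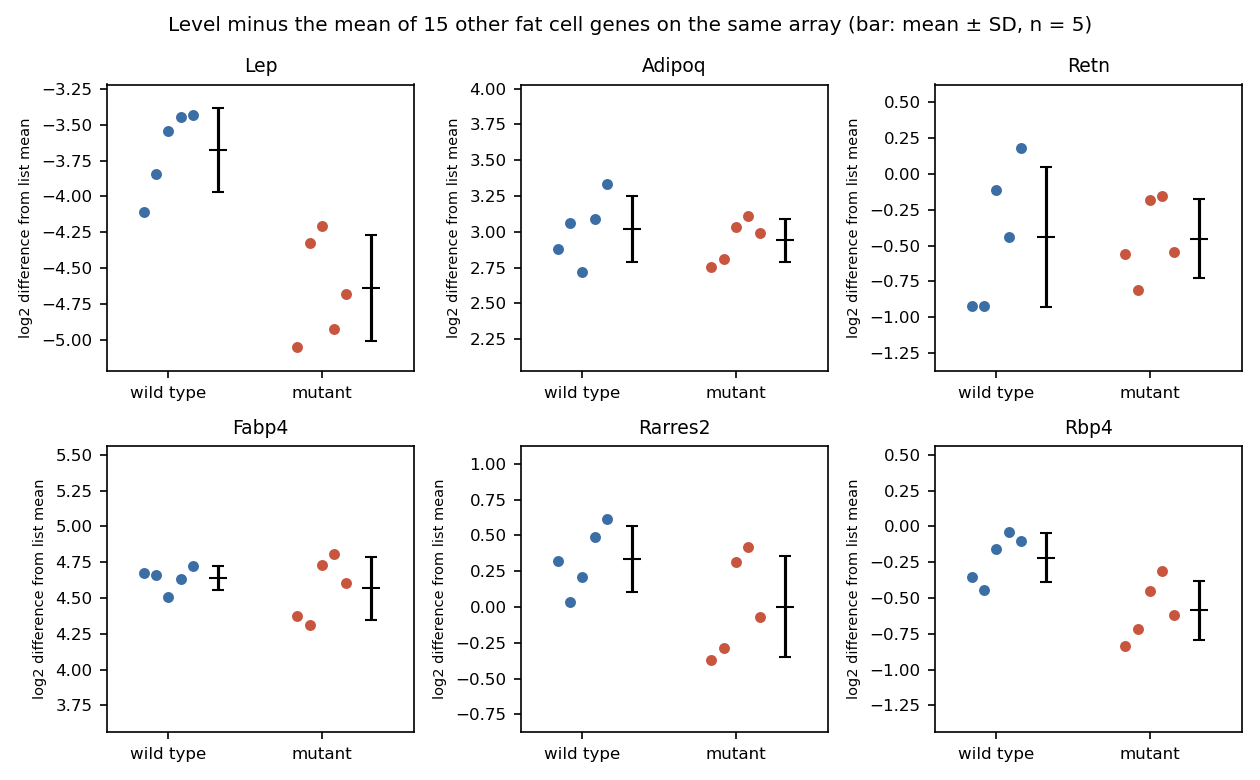
Level of each gene's brightest probe set minus the mean of 15 other fat cell genes on the same array (log2 difference, points; blue wild type, red mutant), with mean and SD of 5 arrays as a bar; every panel spans 2 log2 units. Lep ranges from -4.11 to -3.43 in wild type and from -5.06 to -4.21 in the mutant, while Adipoq, Retn and Fabp4 overlap.

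Markers of brown and white fat were read on the same arrays as Lep. In the brown fat list 9 of 10 tested genes were higher on average in the mutant, 8 of them at an unadjusted limma p under 0.05 (median difference 0.60), but none passed. Of all tested genes 44.1% had a higher mean, while 5.21% were higher and 9.83% lower at that level. Ucp1, the uncoupling protein of brown fat, differed by 0.996 ± 0.24 (SE, limma adjusted p = 0.121), and Elovl3, which lengthens fatty acids, by 2.57 ± 0.58 (SE, limma adjusted p = 0.111). Wild-type Elovl3 readings ran from 2.34 to 5.82, and on only 4 of the 5 wild-type arrays did Elovl3 exceed the array's median. The list mean was 7.57 to 8.16 on wild-type arrays and 8.50 to 8.99 on mutant arrays. Of 7 tested genes chosen as higher in white than in brown fat, 6 had a lower mean in the mutant (median -0.12), with 0 at an unadjusted limma p under 0.05. Nnat, an imprinted proteolipid gene, differed by -0.33 ± 0.43 and Hoxc8, a positional homeobox gene, by -0.26 ± 0.20 (SE; limma adjusted p of 0.726 and 0.525). With the brown fat mean as a covariate the Lep difference was -0.63 ± 0.47 (SE, limma adjusted p = 0.808). That mean had a correlation of 0.875 with group membership.

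General fat cell markers were also higher on average: 13 of 15 adipocyte genes were higher in the mutant by mean (median 0.17), 4 of them at an unadjusted limma p under 0.05, and none passed. Gpd1, which makes the glycerol backbone of fat, differed by 0.44 ± 0.22 and the glucose transporter gene Slc2a4 by 0.39 ± 0.16 (SE; limma adjusted p of 0.364 and 0.281). All 7 smooth muscle genes had a lower mean (median -0.23), 4 of them at an unadjusted limma p under 0.05. Over all tested genes 44.1% had a higher mean, while 5.21% were higher and 9.83% lower at that level. Smtn, a cytoskeletal protein gene of contractile smooth muscle, differed by -0.33 ± 0.10 and Lmod1, an actin filament nucleator gene, by -0.26 ± 0.08 (SE; limma adjusted p of 0.182 and 0.177). In a fit chosen after seeing the data, with the smooth muscle mean as covariate, Lep differed by -1.20 ± 0.26 (SE, limma adjusted p = 0.362). That mean had a correlation of -0.705 with group membership, and the part of these cell types in the Lep difference was not tested.

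Among other cells that make these proteins, 6 of 7 macrophage genes were higher in the mutant by mean (median 0.16). Of all tested genes 44.1% had a higher mean. Lyz2, the lysozyme gene of macrophages, differed by 0.36 ± 0.12 and Adgre1, which encodes F4/80, by 0.35 ± 0.14 (SE; limma adjusted p of 0.212 and 0.273). Of 8 endothelial genes 6 had a higher mean (median 0.08), with Pecam1, an adhesion molecule of endothelium, at -0.33 ± 0.12 and Gpihbp1, which holds lipoprotein lipase on capillaries, at 0.21 ± 0.17 (SE; limma adjusted p of 0.220 and 0.556). Of 7 fibroblast genes 5 had a higher mean (median 0.03), with Pi16, a secreted peptidase inhibitor gene, at 0.22 and the collagen gene Col1a1 at 0.16 (limma adjusted p of 0.606 and 0.493). The list means of the macrophage genes were 6.93 to 7.28 in wild type and 7.23 to 7.49 in the mutant, next to the small Fabp4 difference, and their part in it was not tested.

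The receptors of these proteins were measured on the same arrays. Of 12 listed receptors and carriers, 11 had a probe set and 8 were bright enough to test: the mean was higher for 4 and lower for 4, the median was -0.03 and none passed. Adipor2, an adiponectin receptor, was the 1 gene of these 8 with an unadjusted limma p under 0.05. At that level 5.21% of all tested genes were higher and 9.83% lower. The groups did not overlap on the brighter Adipor2 probe set 1434329_s_at, as on 4.01% of all tested probe sets. This probe set had means of 8.50 ± 0.16 in wild type and 8.96 ± 0.21 in the mutant (SD, n = 5 each). Its difference was 0.46 ± 0.11 (SE, limma adjusted p = 0.121). It was 0.14 ± 0.20 (SE, limma adjusted p = 0.901) with the brown fat mean as a covariate, a mean that had a correlation of 0.875 with group membership. The part of brown fat in the Adipor2 difference was not tested. The dimmer probe set 1437864_at differed by 0.34 ± 0.21 (SE, limma adjusted p = 0.462).

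Adipor1, the other adiponectin receptor, differed by 0.01 ± 0.08 (SE) and Cdh13, which encodes T-cadherin, the vascular binding partner of adiponectin, by -0.17 ± 0.11. Lepr, the leptin receptor, stood at 5.56 ± 0.26 in wild type and 5.66 ± 0.20 in the mutant (SD, n = 5 each), with a difference of 0.10 ± 0.13 (SE). The chemerin receptors Cmklr1 and Ccrl2 differed by 0.19 ± 0.15 and -0.06 ± 0.07. Cap1 and Tlr4, proposed receptors of resistin, differed by -0.19 ± 0.13 and -0.07 ± 0.09. For these 7 genes limma's adjusted p ran from 0.482 to 0.966, and the dimmer Cap1 probe set 1417462_at differed by -0.48 ± 0.17 (SE, limma adjusted p = 0.233). Gpr1, Stra6 (the cell surface receptor of retinol binding protein) and Ttr (its plasma carrier) were too dim to be tested.

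Other secreted products of fat followed no single direction. Of 13 tested genes 8 had a higher mean, the median was 0.04 and none passed, with 3 at an unadjusted limma p under 0.05 (2 higher and 1 lower). Among all tested genes 44.1% had a higher mean, while 5.21% were higher and 9.83% lower at that level. Angptl4, an inhibitor of lipoprotein lipase, differed by 0.58 ± 0.32 and Igf1, the insulin-like growth factor gene, by 0.56 ± 0.15 (SE; limma adjusted p of 0.404 and 0.152). Of 11 tested relatives of the adiponectin, resistin, fatty acid binding and retinol binding genes, 8 had a higher mean (median 0.06) and none passed. Fabp3, the fatty acid binding protein of heart and muscle that brown fat also makes, differed by 0.87 ± 0.31 and C1qtnf3, an adiponectin relative, by -0.38 ± 0.19 (SE; limma adjusted p of 0.229 and 0.362). Retnla, a resistin relative made by macrophages and fat, had means of 8.93 ± 0.31 and 9.27 ± 0.37 (SD, n = 5 each) and did not pass (limma adjusted p = 0.406); it was named after its values were seen.

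Around adipsin, which activates the alternative complement pathway, 5 genes were tested and 4 had a higher mean (median 0.18). The share of all tested genes with a higher mean was 44.1%. Cfp, the properdin gene that stabilises this pathway, differed by 0.30 ± 0.09 and the complement inhibitor gene Cd59a by -0.28 ± 0.15 (SE; limma adjusted p of 0.167 and 0.378). All 12 listed regulators of fat cell differentiation were tested, 7 with a higher mean, and none passed. Cebpb, whose protein is a C/EBP factor, had means of 9.40 ± 0.21 and 10.05 ± 0.30 (SD, n = 5 each) on 1418901_at. The groups did not overlap there, as on 4.01% of all tested probe sets. It differed by 0.65 ± 0.15 (SE, limma adjusted p = 0.114). On the dimmer 1427844_a_at the groups overlapped and the difference was 0.54 ± 0.18 (SE, limma adjusted p = 0.207). In a fit chosen after seeing the data, with the smooth muscle mean as a covariate, Cebpb 1418901_at differed by 0.23 ± 0.11 (SE, limma adjusted p = 0.668). That mean had a correlation of -0.705 with group membership, and its part in the Cebpb difference was not tested. Nr1h3, the liver X receptor alpha gene, differed by 0.44 ± 0.13 (SE, limma adjusted p = 0.176), while Pparg, the master regulator of fat cells, differed by 0.19 ± 0.15 and Cebpa by 0.09 ± 0.17 (SE; limma adjusted p of 0.561 and 0.816). Pparg and Cebpa were named after their values were seen.

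**Figure D5:**
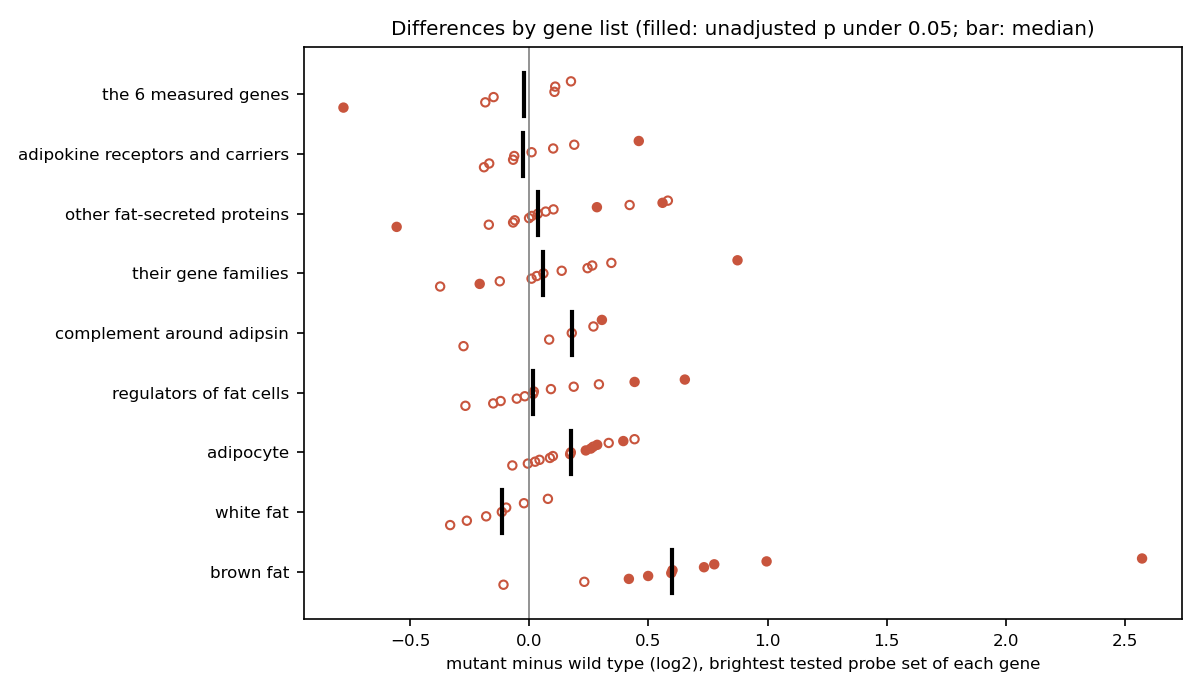
Mutant minus wild type (log2) for the brightest tested probe set of each gene, by list; filled points have an unadjusted limma p under 0.05 and bars are list medians. The 9 lists shown leave out the muscle, endothelial, fibroblast and macrophage markers; their medians run from -0.12 (white fat) to 0.60 (brown fat), and no gene shown passed over all probe sets.

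Within groups the 6 genes did not vary as 1 block. After each level was centred on its group mean, Pearson correlations over the 10 arrays between pairs of the 6 genes ran from -0.60 (Fabp4 with Rarres2) to 0.73 (Lep with Rbp4). As descriptions without a test, the 3 genes most like Lep were Pald1 (0.91), Gnl3l (0.90) and Aga (0.90), and those most like Adipoq were Hspd1 (0.94), Pon3 (0.94) and Snhg6 (0.90). Most like Retn were Osbpl8, Plvap and Zmat1 (each 0.90), and most like Rbp4 were Iqgap2 (0.95), Osbpl6 (0.93) and Eps8 (0.92). Fabp4 was most like Smg8 (0.96), Med11 (0.95) and Nrip2 (0.94), and Rarres2 most like Fem1b (0.96), Mrfap1 (0.95) and Rcor1 (0.95). These came from 10944 candidate genes over arrays that share their normalisation, and none of the 18 is among the 6 genes themselves.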

How the data were processed

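RNA from mouse aorta was measured on Affymetrix MOE 430V2 arrays, 5 wild type and 5 Npas2 mutant, per the labels. The authors deposited log2 values, 1 per probe set and array, already summarised and normalised; GCRMA and MAS5 are named, with neither version nor role, in the submitters' processing notes, and the log2 scale was read from the values (1.10 to 14.74). Genes were named from the platform annotation, which gave 34958 probe sets a single gene, with symbols updated by gene identifier to assembly GRCm38.p6 for 34754.

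A probe set was tested if it exceeded the array's median on 5 or more of 10 arrays (22340 did) with limma 3.58.1 in R 4.3.3 (lmFit and eBayes), two-sided, with Benjamini-Hochberg adjustment. Exact permutation tests used every split of the arrays. The brightest tested probe set stood for a gene in lists. Scripts were tested on simulated data. The genes and lists were chosen with earlier results of these data known. Named were all probe sets of the 7 genes, all measured receptors, Npas2, the passed genes of other lists or else the 2 of largest difference, and the 3 most similar genes. A few other genes, such as Acta2 and the liver markers, were given as examples. Upper quartiles lay between 5.40 and 5.55, and the number of arrays limits precision. No batch or scan date is given in the sources used here.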

Additional observations from a re-analysis of the deposited data

Results flagged for a closer look

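An array stood apart from the other 4 of its group by Dixon's criterion in 4 of 62 groups of values examined, and chance gives about 1 in 20. Fabp4 on 1417023_a_at was 14.61 on mutant F19, with the next mutant array at 14.69. Rbp4 was 9.67 on mutant F13, with the next at 9.51. The brown fat list mean was 7.57 on wild type F17, with the next at 8.01. The fibroblast list mean was 9.39 on wild type F14_2, with the next at 9.67.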

How the results depend on the processing

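Of the settings tried, the count of 48 passing probe sets was 17 with no filter on dim probe sets, 141 with a filter at the 75th percentile, 13 with an ordinary one-way analysis of variance, 14, 1 and 7 with the adipocyte, brown fat and skeletal muscle means as covariates, and 0 without the 4 muscle-rich arrays (limma, 1549 at an unadjusted p under 0.05); the cause was not tested. Leaving out 1 array gave 9 to 43. Lep kept its direction in every setting. It passed only after the adipocyte mean was subtracted (-0.96), in a fit that does not model the scatter this mean gives to all probe sets. Without that subtraction, leaving out 1 array gave Lep -0.93 to -0.63 (limma adjusted p from 0.132 to 0.289). Subtraction reversed Fabp4 1417023_a_at (-0.074), Adipoq (-0.077) and Retn (-0.0077). The smooth muscle covariate reversed Adipoq (-0.013), Fabp4 1424155_at (-0.12) and Retn (-0.11), and the brown fat covariate Rarres2 1428538_s_at (0.051) and 1437902_s_at (0.24). Leaving out 1 array gave Rarres2 1425091_at -0.046 to 0.034. Against the adipocyte mean it gave Adipoq -0.15 to 0.0021, Retn -0.13 to 0.15, Rarres2 -0.44 to -0.24 and Rbp4 -0.44 to -0.30. In that measure Lep was -0.53 and Rbp4 -0.32 without the 4 muscle-rich arrays, where 4 against 2 arrays cannot reach the threshold. Those settings and the smooth muscle covariate were chosen after seeing the data. No paired analysis was possible because no replicate identifier is shared by both groups.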

Other observations

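Insulin-like growth factor 1, a growth hormone mediator that fat and many other tissues release, had a higher mean in the mutant on all 4 of its probe sets. Igf1 differed by 0.56 (1437401_at), 0.52 (1419519_at), 0.48 (1434413_at) and 0.48 (1452014_a_at) on the log2 scale, with limma adjusted p values from 0.0881 to 0.228 and no overlap of the groups on 1419519_at. Npr3, the clearance receptor of natriuretic peptides that the list of fat products also held, had a lower mean on all 3 of its probe sets (-0.56, -0.35 and -0.19). Its brightest, 1435184_at, did not overlap between groups and had a limma adjusted p of 0.0831. That p was 0.0390 where probe sets under the 75th percentile were left out, a filter with which 141 probe sets passed instead of 48. Nampt, an enzyme of NAD synthesis also released by fat, differed by 0.39 ± 0.12 (SE) on 1417190_at but by 0.07 ± 0.08 on its brightest probe set 1455320_at (limma adjusted p of 0.173 and 0.697). Lpl, the lipoprotein lipase gene, differed by 0.26 ± 0.06 on 1415904_at and 0.47 ± 0.08 on 1431056_a_at (SE; limma adjusted p of 0.122 and 0.0535), with no overlap of the groups on either. These probe sets were named after their values were seen. Of all tested probe sets 4.01% had groups that did not overlap.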
